A study of Homo sapiens with 12 samples.

Results

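The serpins are a family of proteins that share one fold, most of which are inhibitors of serine or cysteine proteases. Their genes were taken from the RNA-seq count tables of CAL27 and HSC3 cells by symbol alone (SERPIN, a clade letter from A to I and a number, pseudogenes left out), which gave 35 genes of the 39368 symbols in each table. Both are established lines of human papillomavirus-negative head and neck squamous cell carcinoma (HNSCC), and both carried a tetracycline-inducible short hairpin RNA against MUC1, a transmembrane mucin. In each line, 3 libraries came from cells kept for 7 days in vehicle (0.1% DMSO) and 3 from cells kept for 7 days in 500 ng/mL doxycycline (DOX), which switches the hairpin on, for 12 libraries in 4 groups. CAL27 cells were grown in DMEM and HSC3 cells in MEM, each with fetal bovine serum, and the transduced cells had been selected in puromycin. Cells were cultured in triplicate, as the labels put it, with nothing further on how separate the cultures were, so the p-values measure the spread between these libraries. DOX-treated cells with a control hairpin were not analysed here, so an effect of DOX itself and an effect of the MUC1 hairpin cannot be told apart.

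A serpin holds its fold in a strained state and offers an exposed reactive centre loop to a protease as bait. When the protease cuts the loop, the loop inserts into the body of the serpin and drags the covalently bound enzyme with it, so that each inhibitor molecule is used up with one enzyme molecule. Clade A serpins are mostly secreted proteins of blood plasma, clade B serpins lack a classical signal peptide and act largely inside cells, and many of the clade B genes are expressed in stratified squamous epithelium. Several serpins restrain the plasminogen activators, and a few family members, such as maspin (SERPINB5) and the collagen chaperone HSP47 (SERPINH1), do not inhibit proteases. In squamous carcinoma the family is known for the squamous cell carcinoma antigens, SERPINB3 and SERPINB4, which were first described as serum tumour markers.

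The hairpin's target was lower with DOX in both lines. MUC1 stood at 63.9, 58.9 and 59.9 CPM (counts scaled to library size, with TMM factors within a line) in CAL27 vehicle libraries and at 3.19, 3.06 and 3.58 CPM with DOX, a log2 fold change of -4.21 ± 0.07 (SE; adjusted p = 1.6e-19, edgeR quasi-likelihood test). In HSC3 cells MUC1 was low to begin with, at 1.51, 1.78 and 1.499 CPM with vehicle and 0.279, 0.244 and 0.120 CPM with DOX (log2 fold change -2.88 ± 0.38, adjusted p = 2.0e-04).

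Library totals ran from 89730914 to 169065103 counts. The tables nevertheless differed in how many counts stood for 1 molecule, as estimated from the share of genes at 0 counts among those for which 8 to 16 counts were expected: 2.45 to 3.33 counts in the CAL27 libraries, 6.69, 4.18 and 7.43 in the HSC3 vehicle libraries, and 17.2, 8.93 and 11.3 in the HSC3 DOX libraries. In HSC3 cells this measure of duplication moved with DOX, and DOX library 1 stood farthest from its group. When the counts of each library were divided by this measure, the same 4 serpins were called lower in HSC3 cells as without it. They were SERPINA1 (-1.08), SERPINB13 (-1.54), SERPINB9 (-1.98) and SERPING1 (-3.50 on the log2 scale). Dividing a whole library by 1 number largely cancels in the scaling to library size. The division changes the weight of low counts and cannot show whether duplication altered the folds. All 12 squamous epithelial markers (such as KRT5, KRT14 and TP63) were above 3 counts in every group, KRT5 being the most abundant at 4076 CPM in CAL27 and 2627 CPM in HSC3 vehicle cells. Their summed level was lower with DOX, at 8149 to 8424 CPM against 4186 to 4470 CPM in CAL27 cells and 6823 to 7455 CPM against 3648 to 4068 CPM in HSC3 cells, but not every marker moved this way, as given at the end. In bulk RNA, fewer cells of a kind and less RNA per cell cannot be told apart.

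Of the 35 serpin genes, 22 had enough counts to be tested in CAL27 cells, 20 in HSC3 cells and 19 in both. SERPINA3, SERPINB3 and SERPINB4 were tested in CAL27 cells alone and SERPINC1, the gene of antithrombin, in HSC3 cells alone. The 12 tested in neither line were SERPINA2, SERPINA4, SERPINA6, SERPINA7, SERPINA9, SERPINA10, SERPINA11, SERPINA12, SERPINB10, SERPINB11, SERPINB12 and SERPINI2, and none of them exceeded 28 counts in any library. Several of these are plasma serpins known from liver, such as the hormone carriers SERPINA6 and SERPINA7.

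SERPINB3 and SERPINB4 lie in the same cluster on chromosome 18 and are near copies, so the sequences that separate them are shown first. Their reference transcripts were 1707 bases each and 95.66% identical, and of all 50-base windows of one, 24.9% occurred in the other. Over the coding part of 1170 bases they differed at 56 positions. The 90 coding bases that differ most, 13 positions in exon 8 (GRCh38, minus strand, SERPINB3 at chr18:63655772-63655861 and SERPINB4 at chr18:63637834-63637923), run toward the codons of the reactive centre loop, and capitals mark the bases that differ:
SERPINB3: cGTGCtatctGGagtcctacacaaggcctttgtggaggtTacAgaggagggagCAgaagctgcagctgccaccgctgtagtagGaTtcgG
SERPINB4: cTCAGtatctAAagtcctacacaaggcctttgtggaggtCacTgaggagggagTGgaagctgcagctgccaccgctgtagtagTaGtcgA

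Reads from such stretches can be told apart, whereas reads from the longest identical coding run, 129 bases, cannot, and how the counting treated reads that fit both genes is not given in the sources used here. The counts of this pair are therefore uncertain individually. The 250 bases before their starts were 98.8% identical (RefSeq, GRCh38.p14). Whether this sequence has a part in their change with DOX was not tested. The last 100 of these bases (minus strand, SERPINB3 at chr18:63661894-63661993, SERPINB4 at chr18:63644257-63644356) differed at the 2 positions in capitals and are shown because both genes were called lower in CAL27 cells:
SERPINB3: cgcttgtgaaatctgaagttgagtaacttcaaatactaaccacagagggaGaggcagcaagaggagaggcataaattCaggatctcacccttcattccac
SERPINB4: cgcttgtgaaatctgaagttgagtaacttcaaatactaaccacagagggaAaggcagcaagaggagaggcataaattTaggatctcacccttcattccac

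In vehicle-treated cells the lines held different sets of serpins. Summed over all members, serpin transcripts made up 679 ± 17.4 CPM in CAL27 cells (SD, n = 3) and 1278 ± 30.3 CPM in HSC3 cells. In CAL27 cells SERPINH1 took 26.1% of this sum, SERPINB1 18.1%, SERPINB13 15.2% and SERPINB5 12.7%. SERPINB2 led in HSC3 cells with 25.2%, followed by SERPINA1 with 20.6% and SERPINB5 with 12.02%. On the per-length scale (CPM per kb of the reference transcript), the highest 5 levels in CAL27 cells were those of SERPINH1 (85.9), SERPINB1 (49.6), SERPINB6 (48.3), SERPINB5 (33.3) and SERPINB13 (32.9). In HSC3 cells high levels were those of SERPINB2 (169), SERPINA1 (87.4), SERPINB6 (62.7) and SERPINB5 (59.4), with SERPINH1 at 43.2.

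**Figure D1:**
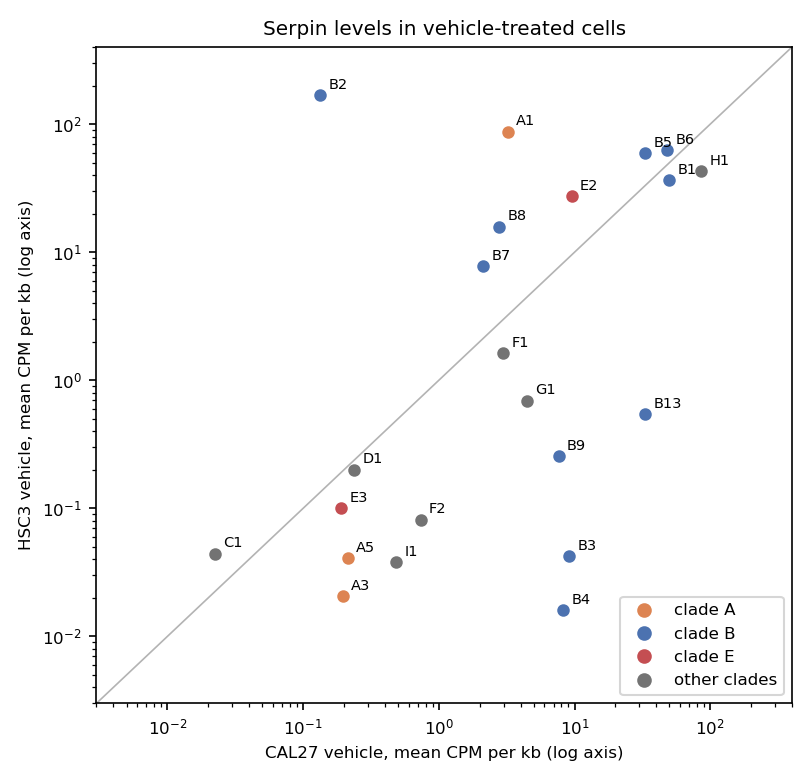
Mean level of each serpin in vehicle-treated CAL27 cells (x axis) and HSC3 cells (y axis) in CPM per kb of reference transcript, both on log axes, 1 point per gene shown, coloured by clade, with the line of equal levels drawn. SERPINB2 and SERPINA1 lie far above the line, and SERPINB13, SERPINB9, SERPINB3 and SERPINB4 far below it. Levels were scaled within each cell line, not jointly.

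Between the lines, 17 of 25 serpins tested in the fit over all 12 libraries differed by more than 2-fold at an adjusted p under 0.05, beside 31.9% of all genes tested. Of these, 10 were lower in HSC3 cells (beside 18.7% of all genes) and 7 higher (beside 13.2%). The median log2 difference of all genes was -0.12, and -0.39 when library totals were used in place of TMM scaling. CPM and CPM per kb were scaled within each line. Their ratios between the lines therefore differ somewhat from the log2 differences, which come from the joint scaling of all 12 libraries. Cell line, medium and any batch cannot be told apart here. SERPINB2, the plasminogen activator inhibitor PAI-2, differed most on the high side: 0.269, 0.246 and 0.246 CPM in CAL27 libraries against 315, 304 and 348 CPM in HSC3 libraries (log2 difference 10.57 ± 0.12, adjusted p = 3.5e-17). SERPINA1 differed by 5.04 ± 0.08 (adjusted p = 1.9e-16). SERPINB8, SERPINB7, SERPINE2 and SERPINB5 were also higher in HSC3 cells, by log2 differences of 2.78, 2.15, 1.81 and 1.11, the last falling to 0.84 with library totals.

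On the low side in HSC3 cells stood the squamous carcinoma antigens. SERPINB4 gave 2, 6 and 0 counts in the HSC3 vehicle libraries against 1874, 1247 and 1628 in CAL27 libraries (log2 difference -8.92 ± 0.50). Its HSC3 counts stand for 0.299, 1.43 and 0 molecules, so the size is uncertain. It was -8.27 without HSC3 vehicle library 3. Without library 2 only 2 and 0 counts are left in that group, which allow no fold. SERPINB3 gave 12, 0 and 16 counts against 1930, 1345 and 1918 (-7.32 ± 0.41). SERPINB13 (-5.64 ± 0.12) and SERPINB9 (-4.64 ± 0.15) were also far lower in HSC3 cells. The log2 differences of SERPINI1, SERPINA3, SERPINF2, SERPING1 and SERPINA5 lay between -3.35 and -2.13. That of SERPINI1 was -4.46 without HSC3 vehicle library 3, that of SERPINF2 -3.64 without HSC3 vehicle library 2, and that of SERPINA3 missed the threshold when vehicle library 1 or 3 of CAL27 or vehicle library 1 of HSC3 was left out (adjusted p = 0.053 to 0.083). SERPINB12, the remaining one, was at 0 in all 3 HSC3 vehicle libraries and at 14, 8 and 24 counts in CAL27 libraries.

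With DOX, 9 of the 22 serpins tested in CAL27 cells passed an adjusted p under 0.05 and a 2-fold change, beside 6.42% of all genes tested. Lower were SERPINA1, SERPINA3, SERPINA5, SERPINB3, SERPINB4, SERPINB9, SERPINB13 and SERPING1 (8 of 22, beside 5.11% of all genes), and 1 was higher (beside 1.31%). In HSC3 cells 4 of 20 passed, beside 5.98% of all genes, and all 4 were lower: SERPINA1, SERPINB9, SERPINB13 and SERPING1 (beside 4.4% of all genes lower and 1.58% higher). These 4 were also lower in CAL27 cells, which makes 4 of the 19 serpins tested in both lines, beside 1.14% of the 17164 genes tested in both. The median log2 fold change of the serpins was -0.45 in CAL27 and -0.18 in HSC3 cells, beside -0.0052 and -0.0097 for all genes. A gene with counts in its higher group alone passes the filter on low counts, so these counts and medians describe the tested members, not the whole family. The family was also chosen with earlier results of these data known.

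**Figure D2:**
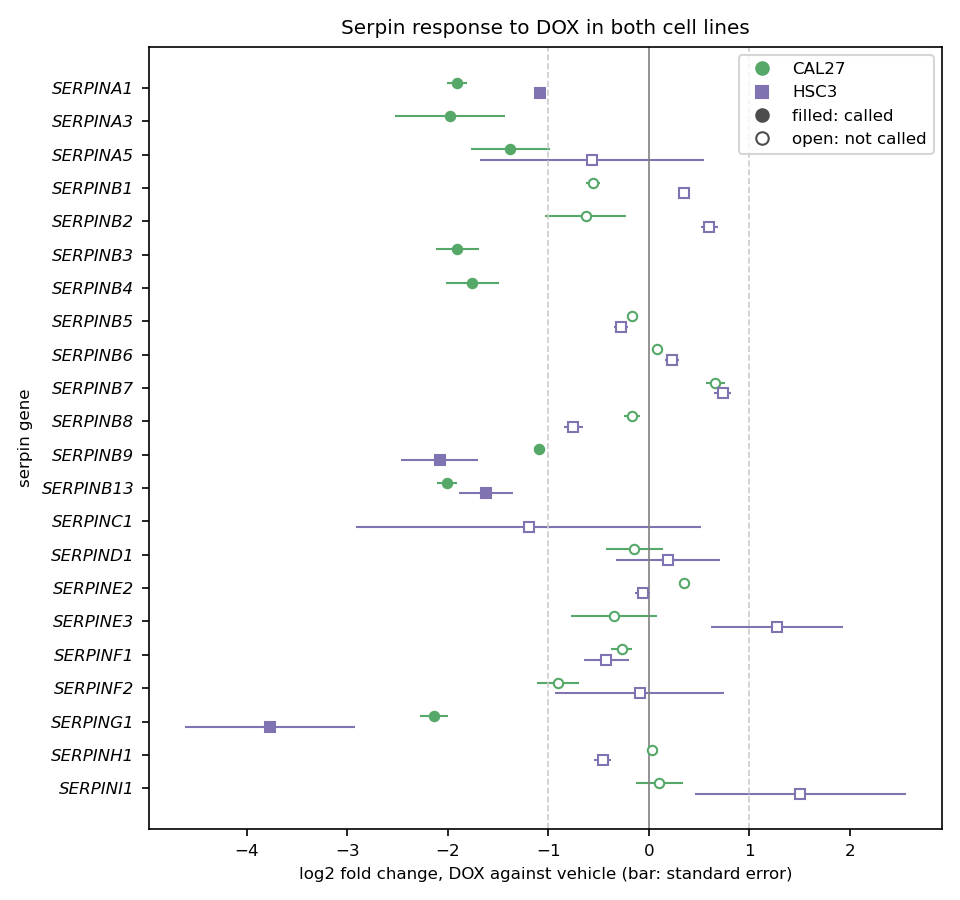
Log2 fold change of the serpins described, DOX against vehicle (x axis; bars are standard errors), in CAL27 cells (circles) and HSC3 cells (squares), with filled symbols for an adjusted p under 0.05 and more than a 2-fold change; dashed lines mark 2-fold. SERPINA1, SERPINB9, SERPINB13 and SERPING1 are filled on the left in both lines, and no serpin drawn is filled on the right.

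SERPINA1 encodes alpha-1 antitrypsin, the chief plasma inhibitor of neutrophil elastase. Its level in CAL27 cells was 9.76, 9.26 and 10.1 CPM with vehicle and 2.90, 2.58 and 2.28 CPM with DOX (log2 fold change -1.91 ± 0.10, adjusted p = 6.7e-12). In HSC3 cells, where it was the second most abundant serpin, it stood at 267, 259 and 262 CPM with vehicle and 117, 127 and 129 CPM with DOX (log2 fold change -1.08 ± 0.06, adjusted p = 6.0e-07). The groups did not overlap in either line, the libraries of each group lay close together, and the DOX level was 26.7% of vehicle in CAL27 and 47.2% in HSC3 cells.

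The other tested clade A genes were near the limit of detection. In CAL27 cells SERPINA3, alpha-1 antichymotrypsin, an inhibitor of cathepsin G, had 35, 24 and 44 counts in vehicle libraries against 7, 14 and 2 in DOX libraries (log2 fold change -1.98 ± 0.55, adjusted p = 0.0058). Its size depended on single libraries, being -2.80 without DOX library 5 and -1.46 without DOX library 6. In HSC3 cells it had 1, 4 and 6 counts with vehicle and 0 in each DOX library, too few to test. SERPINA5, the protein C inhibitor, had 64, 49 and 50 counts against 27, 19 and 10 in CAL27 cells (-1.38 ± 0.39, adjusted p = 0.0067), and 10, 14 and 6 against 14, 6 and 8 in HSC3 cells, where the groups overlapped. Neither CAL27 call held when all 12 libraries were fitted together (adjusted p = 0.17 and 0.16), and SERPINA5 fell just short of 2-fold without DOX library 6. Of the exon bases of SERPINA3, 31.7% are shared on the same strand with another annotated gene, ENSG00000273259.

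SERPING1 encodes the C1 inhibitor, which blocks the complement proteases C1r and C1s as well as plasma kallikrein. It was found at 8.26, 8.29 and 7.79 CPM with vehicle and 2.42, 1.46 and 1.66 CPM with DOX in CAL27 cells (log2 fold change -2.14 ± 0.14, adjusted p = 8.9e-10). In HSC3 cells the counts were 198, 100 and 148 with vehicle against 0, 30 and 10 with DOX (-3.77 ± 0.85, adjusted p = 0.0064). Divided by the counts per molecule of each library, these came to about 29.6, 23.9 and 19.9 against 0, 3.36 and 0.886 molecules. DOX was lower in every library of both lines, but the size in HSC3 cells depended on single libraries: it was -5.12 without DOX library 2 and -3.17 without DOX library 1.

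Among the clade B serpins, SERPINB13 and SERPINB9 were lower in both lines. SERPINB13, also called hurpin or headpin, is an inhibitor of cathepsin L expressed in keratinocytes. Its CAL27 levels were 107, 97.0 and 105 CPM with vehicle and 29.5, 25.0 and 22.5 CPM with DOX (log2 fold change -2.01 ± 0.10, adjusted p = 7.2e-07), so that its share of all serpin transcripts went from 15.2% to 4.94%. In HSC3 cells the vehicle libraries gave 202, 160 and 232 counts and the DOX libraries 86, 98 and 64, or 1.71 ± 0.0984 against 0.556 ± 0.0963 CPM (SD, n = 3; log2 fold change -1.62 ± 0.27, adjusted p = 0.0011). The groups were apart in both lines, at levels that differed widely between the lines.

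SERPINB9 is the inhibitor of granzyme B, the death-inducing protease of cytotoxic lymphocytes. In CAL27 cells it was at 32.1, 31.4 and 31.1 CPM with vehicle and 15.7, 14.0 and 14.7 CPM with DOX (log2 fold change -1.09 ± 0.06, adjusted p = 6.1e-12). In HSC3 cells the vehicle libraries gave 100, 108 and 154 counts and the DOX libraries 34, 46 and 30 (-2.08 ± 0.38, adjusted p = 0.0019). Every DOX library lay below every vehicle library of its line, but the HSC3 values rest on about 14.9 to 25.8 molecules with vehicle and 1.98 to 5.15 with DOX.

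The squamous cell carcinoma antigens were measurable in CAL27 cells. SERPINB3, known as an inhibitor of lysosomal cysteine proteases, stood at 15.3, 13.8 and 17.4 CPM with vehicle and 5.36, 4.13 and 2.99 CPM with DOX (log2 fold change -1.91 ± 0.21, adjusted p = 0.00055). SERPINB4, known as an inhibitor of cathepsin G and mast cell chymase, stood at 14.8, 12.8 and 14.8 CPM with vehicle and 5.81, 3.95 and 2.87 CPM with DOX (-1.76 ± 0.26, adjusted p = 0.0039). Every DOX library lay below every vehicle library for both genes, which may share reads as described above. SERPINB3 also overlaps SERPINB11 on the opposite strand over 36.3% of its exon bases, and SERPINB11 had no more than 2 counts in any CAL27 library. In HSC3 cells SERPINB3 was at 0 in all 3 DOX libraries, with 12, 0 and 16 counts with vehicle, and SERPINB4 had no more than 6 counts in any library.

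The other clade B genes tested in either line differed by less than 2-fold. In CAL27 cells SERPINB10, too low to be tested, gave 28, 18 and 6 counts in vehicle libraries against 2, 4 and 0 in those of DOX, and it and SERPINB12 were called lower there when no filter on low counts was used, SERPINB10 also without vehicle library 3 or any 1 DOX library and SERPINB12 also without DOX library 4. SERPINB7 (megsin) was higher with DOX in both lines, going from 5.05, 4.48 and 4.44 to 6.70, 7.97 and 7.46 CPM in CAL27 cells (log2 fold change 0.66 ± 0.10, adjusted p = 1.1e-05) and from 17.1, 16.02 and 18.1 to 29.3, 28.1 and 27.9 CPM in HSC3 cells (0.73 ± 0.09, adjusted p = 0.00011). SERPINB5 (maspin) was slightly lower in both, at 86.1 ± 2.80 against 76.7 ± 4.04 CPM in CAL27 cells (-0.17 ± 0.04, adjusted p = 0.0043) and 154 ± 9.95 against 127 ± 8.11 CPM in HSC3 cells (SD, n = 3; -0.28 ± 0.07, adjusted p = 0.014). These small differences of SERPINB5 did not always pass: its adjusted p was 0.090 in CAL27 cells in the fit of all 12 libraries, and 0.064, 0.077 and 0.065 in HSC3 cells without vehicle library 2, vehicle library 3 or DOX library 3. SERPINB8, an intracellular inhibitor of furin, was lower in HSC3 cells, from 51.3, 48.2 and 58.3 to 33.9, 29.8 and 30.1 CPM (-0.75 ± 0.09, adjusted p = 0.00014). In CAL27 cells the log2 fold change of SERPINB8 was -0.17 ± 0.08 (adjusted p = 0.093, and 0.049 without DOX library 4).

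SERPINB1, an intracellular inhibitor of the neutrophil proteases elastase, cathepsin G and proteinase 3, went in opposite directions. Its CAL27 levels were 123, 116 and 129 CPM with vehicle and 92.4, 84.1 and 74.4 CPM with DOX (log2 fold change -0.56 ± 0.07, adjusted p = 7.6e-05). In HSC3 cells they were 91.5, 90.1 and 89.7 CPM with vehicle and 119.6, 112 and 115 CPM with DOX (0.35 ± 0.06, adjusted p = 0.0011). The difference between the lines was 0.91 ± 0.10 (adjusted p = 1.3e-05, interaction term of the 12-library fit). SERPINB6, a further intracellular inhibitor of cathepsin G and one of the highest serpins per kb in both lines, was at 64.6, 62.2 and 63.6 CPM with vehicle and 68.8, 67.1 and 65.7 CPM with DOX in CAL27 cells (0.08 ± 0.04, adjusted p = 0.11, and 0.042 without DOX library 6). In HSC3 cells it went from 81.4, 85.1 and 80.7 to 89.1, 101 and 101 CPM (0.23 ± 0.07, adjusted p = 0.029). This value of SERPINB6 missed the threshold with library totals (adjusted p = 0.056) and in 5 of the 6 fits that left out 1 HSC3 library (0.073 to 0.12), the exception being the one without DOX library 1.

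**Figure D3:**
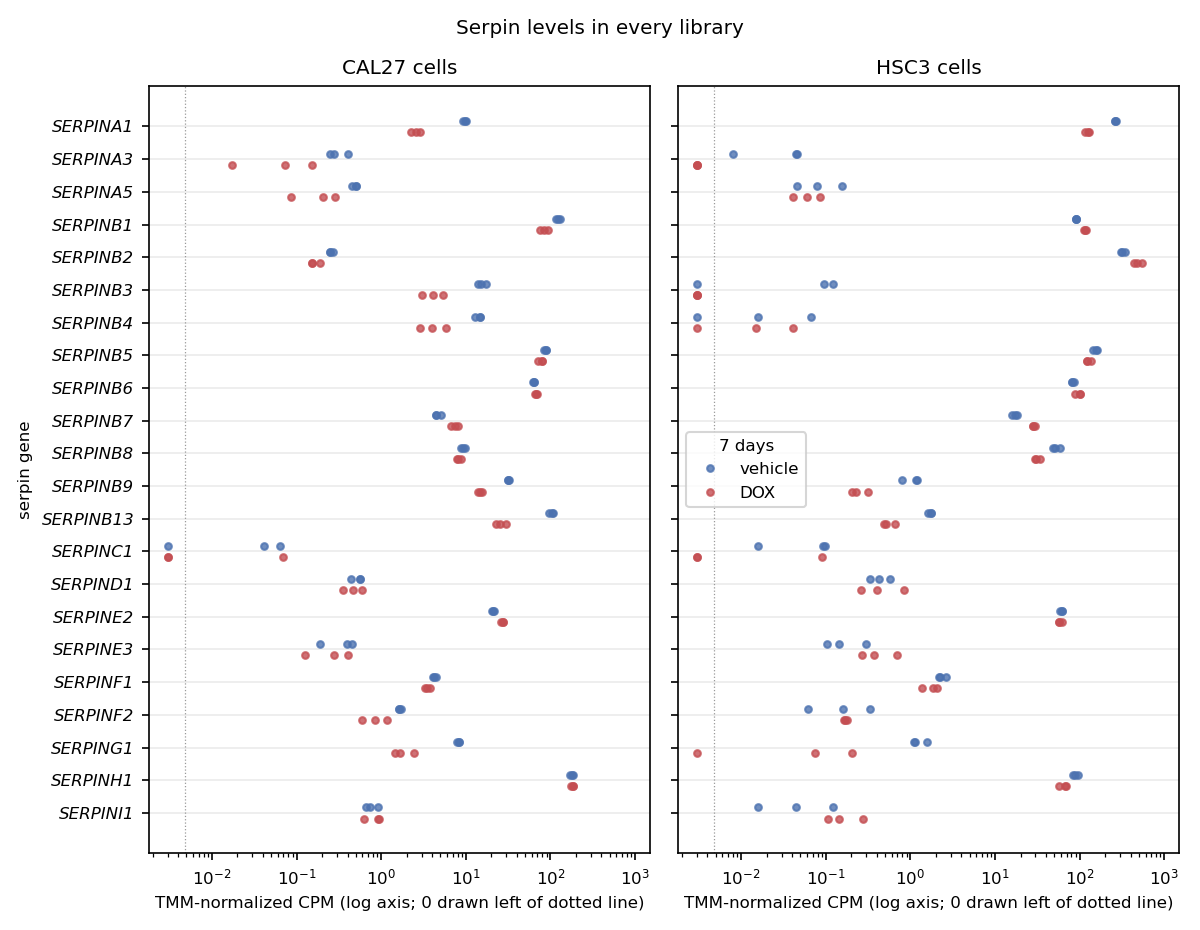
TMM-normalized CPM (log axis) of the serpins described in every library, vehicle in blue and DOX in red, 3 points per group, for CAL27 cells (left) and HSC3 cells (right); libraries at 0 are drawn to the left of the dotted line. SERPINA1, SERPINB13, SERPINB9 and SERPING1 show separated groups with DOX on the left in both panels, at levels that differ between the lines.

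SERPINB2, an inhibitor of urokinase, went from 315, 304 and 348 to 546, 442 and 478 CPM in HSC3 cells (log2 fold change 0.60 ± 0.08, adjusted p = 0.00032) and took 36.8% of all serpin transcripts there with DOX. In CAL27 cells SERPINB2 gave only 34, 24 and 27 counts in vehicle libraries and 18, 14 and 18 in DOX libraries (-0.63 ± 0.40, adjusted p = 0.23). Part of its exon sequence, 19.96%, is shared on the same strand with the annotated gene ENSG00000289724.

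SERPINE2 encodes protease nexin-1, an inhibitor of thrombin and urokinase that stays near the cell surface. It was higher with DOX in CAL27 cells, from 20.6, 21.7 and 21.1 to 25.9, 27.8 and 27.2 CPM (log2 fold change 0.35 ± 0.05, adjusted p = 2.0e-05). In HSC3 cells it stood at 59.1, 61.8 and 62.4 CPM with vehicle and 56.9, 62.6 and 56.2 CPM with DOX, and the groups overlapped (-0.06 ± 0.07, adjusted p = 0.59). SERPINF2, alpha-2 antiplasmin, the plasma inhibitor of plasmin, was lower in CAL27 cells with 205, 158 and 188 counts against 82, 56 and 137 (-0.90 ± 0.21, adjusted p = 0.0013). It passed 2-fold without DOX library 6 (-1.18, adjusted p = 1.6e-05) and missed the adjusted p in the fit of all 12 libraries (0.15). SERPINF1, the non-inhibitory pigment epithelium-derived factor, had a log2 fold change of -0.27 ± 0.11 there (adjusted p = 0.045), which missed the threshold without a filter on low counts, in the fit of all 12 libraries and in 5 of the 6 fits that left out 1 library (adjusted p = 0.061 to 0.30).

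SERPINH1, the endoplasmic reticulum chaperone of collagen known as HSP47, was the leading serpin of CAL27 cells and differed little there between 182, 178 and 169.8 CPM with vehicle and 184, 173 and 185 CPM with DOX (log2 fold change 0.03 ± 0.04, adjusted p = 0.62). In HSC3 cells it was lower with DOX, at 94.7, 87.6 and 84.4 against 57.8, 68.1 and 68.0 CPM (-0.46 ± 0.08, adjusted p = 0.0016). SERPIND1 (heparin cofactor II), SERPINE3 and SERPINI1 (neuroserpin) were below 1 CPM in every library of both lines, and none passed an adjusted p under 0.05. SERPINC1 in HSC3 cells did not pass either, with 12 counts at most.

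At an adjusted p under 0.05 with no limit on the fold, 12 serpins were lower and 3 higher in CAL27 cells, beside 21.8% and 22.6% of all genes. In HSC3 cells 7 were lower and 5 higher, beside 15.4% and 13.0% of all genes. SERPINA1, SERPINB5, SERPINB9, SERPINB13 and SERPING1 were lower in both lines at this level (SERPINB5 not under every alternative, as given above), SERPINB7 higher in both, and SERPINB1 opposite. The vehicle and DOX groups did not overlap for 14 serpins that were lower and 4 that were higher in CAL27 cells (beside 26.3% and 26.0% of all genes), and for 8 and 5 in HSC3 cells (beside 22.8% and 19.8%). Across the 19 serpins tested in both lines, Pearson's r of the log2 fold changes was 0.708, and 0.829 over the 11 whose mean level on the log2 CPM scale reached 0 in both lines, beside 0.386 and 0.502 over all genes. These values run across genes, which are not independent replicates, and 13 of the 19 had the same sign in both lines, beside 62.1% of all genes.

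As a sum, serpin transcripts were lower with DOX in CAL27 cells, at 659.6 to 693 CPM with vehicle against 502 to 542 CPM. In HSC3 cells the sum overlapped between the groups, at 1252 to 1311 against 1279 to 1373 CPM, while its makeup changed: SERPINA1 went from 20.6% to 9.38% of the sum, and SERPINB2 from 25.2% to 36.8%. By clade, the summed clade B level was 451 ± 18.3 against 292 ± 20.9 CPM in CAL27 cells and 721 ± 33.1 against 889 ± 60.6 CPM in HSC3 cells (SD, n = 3).

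The size of the DOX response differed between the lines for several serpins. In the interaction test, 2 of 25 serpins passed an adjusted p under 0.05 and a 2-fold difference, beside 5.21% of all genes, and 9 passed the adjusted p alone, beside 20.6%. One was SERPINB2, with a log2 fold change 1.24 ± 0.26 higher in HSC3 than in CAL27 cells (adjusted p = 0.0030), although it rests on the low CAL27 counts given above. The other, SERPINB12, is known from squamous epithelium. In CAL27 cells it had 14, 8 and 24 counts in vehicle libraries against 8, 0 and 2 in DOX libraries. All HSC3 vehicle libraries were at 0, against 20, 8 and 0 counts in DOX libraries, which allows no fold. Its adjusted p of 0.044 became 0.057 to 0.11 in 9 of the 12 fits that left out 1 library. SERPINA1 fell less in HSC3 than in CAL27 cells (difference 0.83 ± 0.10, adjusted p = 3.3e-05), and SERPINB9 fell more (-0.99 ± 0.22, adjusted p = 0.0053), although the difference of -0.89 obtained after dividing out the counts per molecule did not pass (adjusted p = 0.13). For SERPINB13 the difference of 0.39 ± 0.18 (adjusted p = 0.15), and for SERPING1 that of -1.66 ± 0.67 (adjusted p = 0.10), did not pass, but each did without 1 library: SERPINB13 without CAL27 DOX library 4 (adjusted p = 0.034) and SERPING1 without HSC3 DOX library 2 (adjusted p = 0.0037).

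Many serpin genes sit in clusters. On chromosomes 18 and 6 the members of a cluster did not move as one. The chromosome 18 cluster (GRCh38, chr18:63476958-64019779, 543 kb) holds SERPINB5, SERPINB12, SERPINB13, SERPINB4, SERPINB11, SERPINB3, SERPINB7, SERPINB2, SERPINB10 and SERPINB8 in this order. In CAL27 cells the 3 called genes, SERPINB13, SERPINB4 and SERPINB3, lie next to each other but for SERPINB11, which was not tested. The nearest tested serpins on either side were SERPINB7, higher by 0.66, and SERPINB5, lower by 0.17 on the log2 scale. None of the 8 other genes tested in or beside the cluster in CAL27 cells, nor of the 5 in HSC3 cells, was called.

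**Figure D4:**
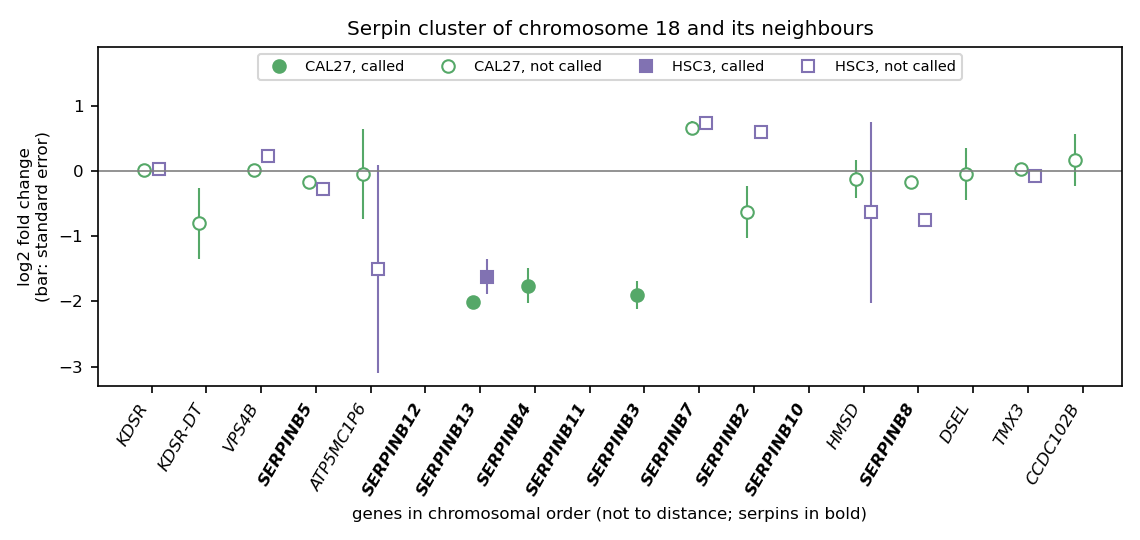
Log2 fold change, DOX against vehicle (y axis; bars are standard errors), of the genes in and beside the serpin cluster of chromosome 18 in chromosomal order (x axis, serpins in bold), with CAL27 cells as circles and HSC3 cells as squares, filled where called; genes without a symbol were not tested. The called genes SERPINB13, SERPINB4 and SERPINB3 stand between SERPINB5 and SERPINB7, which moved by less than 2-fold.

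On chromosome 6 (chr6:2832332-2972165), SERPINB9 was called in both lines between SERPINB1 and SERPINB6, which were not. In CAL27 cells SERPINB1 was lower by less than 2-fold (-0.56), and SERPINB6 was at 0.08. SERPINB9P1, which lies between SERPINB1 and SERPINB9, was at -0.61 ± 0.22 in CAL27 cells (adjusted p = 0.031). In HSC3 cells it was at 0.01 ± 0.63 (adjusted p = 0.99). Of the 7 other genes tested in or beside this cluster in each line, 1 was called in CAL27 cells, the long non-coding RNA LINC01600 (-1.44 ± 0.51, with 24 counts at most), and none in HSC3 cells. On chromosome 17 (chr17:1742836-1777565), neither SERPINF1 nor SERPINF2 was called with all libraries in, SERPINF2 being called lower in CAL27 cells without DOX library 6. Of 6 other genes tested beside them 1 was called in CAL27 cells, TLCD2 (-1.64 ± 0.36, with 74 counts at most), and none in HSC3 cells. On chromosome 3 none of the 9 other genes tested in CAL27 cells, nor of the 7 in HSC3 cells, was called. The chromosome 14 cluster (chr14:94280460-94624055) holds 10 clade A genes. Of these SERPINA1, SERPINA5 and SERPINA3 were tested in CAL27 cells, and all were called lower (beside 5.11% of all genes). SERPINA5 and SERPINA3 passed the filter on low counts only because of their vehicle libraries. The share therefore describes the tested genes, not the cluster. The calls of SERPINA5 and SERPINA3 did not hold in the fit of all 12 libraries (adjusted p = 0.16 and 0.17). In HSC3 cells SERPINA1 was called lower and SERPINA5 was not called (-0.56 ± 1.11, adjusted p = 0.77). The nearest tested neighbours of the cluster on the proximal side include IFI27, an interferon-inducible gene. It was lower in both lines by log2 fold changes of -2.81 and -1.48. PPP4R4, which lies between IFI27 and the cluster, had log2 fold changes of -0.48 and -0.71, and DICER1, on the other side, 0.59 and 0.46.

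Because the study concerns interferon-driven inflammation, the promoters were searched for the letters of elements known from interferon-responsive genes: the core of the gamma-activated site, TTCNNNGAA, and the core of the interferon-stimulated response element, in which 2 GAAA runs are 2 bases apart. Both strands of the 300 bases from 250 before to 50 after the start were read, and the first motif reads the same on either strand. The first was found in 7.66% of 35116 RefSeq promoters and the second in 3.57%, and a window may hold both. The table held 41 promoters of 27 of the 35 serpins, some genes having several. The first motif was found in 9 of these 41, each of another gene, and the second in 1, that of SERPINB12. SERPING1, SERPINF1 and SERPINF2 were not in the table. Among the 18 of these that were tested in a line, 5 held the first (SERPINA5, SERPINB1, SERPINB7, SERPINB8 and SERPIND1) and none the second. The matches upstream of a start are shown in capitals for the 4 tested genes that have one, on the strand of the gene (RefSeq, GRCh38.p14).
SERPINA5, chr14:94581176-94581254, plus strand: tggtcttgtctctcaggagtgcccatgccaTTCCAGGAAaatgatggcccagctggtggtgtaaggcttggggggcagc
SERPINB1, chr6:2842023-2842111, minus strand: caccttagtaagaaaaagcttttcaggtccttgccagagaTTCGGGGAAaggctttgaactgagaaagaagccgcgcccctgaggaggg
SERPINB7, chr18:63752971-63753056, plus strand: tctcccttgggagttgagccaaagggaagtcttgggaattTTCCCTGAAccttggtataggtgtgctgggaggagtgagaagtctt
SERPINB8, chr18:63969831-63969898, plus strand: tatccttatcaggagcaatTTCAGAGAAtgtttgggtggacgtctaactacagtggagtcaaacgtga

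These 4 genes did not share a direction: SERPINA5 was lower in CAL27 cells, SERPINB8 lower in HSC3 cells, SERPINB7 higher in both lines, and SERPINB1 lower in one and higher in the other. The windows of SERPINA1, SERPINB13, SERPINB9, SERPINB3 and SERPINB4 held neither string of letters. A match is a string of letters and says nothing of binding, and its absence refers to these windows alone.

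The proteases and receptors that serpins act on were described from lists of genes, counted the same way. These lists were chosen with earlier results of these data known. The share of all genes tested that were called, to be read beside each list, was 5.11% lower and 1.31% higher in CAL27 cells, and 4.4% lower and 1.58% higher in HSC3 cells. Of 26 plasminogen activation and coagulation partners, 22 were tested in CAL27 cells, where 4 were called lower and 1 higher (median log2 fold change -0.33), and 19 in HSC3 cells, where 4 were called lower and none higher (median 0.03). The same 4 were lower in both lines. These were LRP1, the endocytic receptor that clears serpin-protease complexes (-1.32 ± 0.05 and -2.02 ± 0.15), its relative VLDLR (-1.12 ± 0.07 and -1.13 ± 0.11), the thrombin receptor F2R (-1.36 ± 0.04 and -1.38 ± 0.07) and its relative F2RL2 (-2.35 ± 0.20 and -2.86 ± 0.85). The HSC3 value of F2RL2 rests on low counts, 166, 114 and 174 with vehicle against 60, 0 and 22 with DOX (adjusted p = 0.027). F3, tissue factor, was higher in CAL27 cells, at 586 ± 45.5 against 1481 ± 69.5 CPM (SD, n = 3; log2 fold change 1.34 ± 0.05). Urokinase itself, PLAU, the target of SERPINB2, was lower in both lines by less than 2-fold (-0.87 ± 0.04, adjusted p = 2.6e-12, and -0.72 ± 0.06, adjusted p = 6.3e-06), and its receptor PLAUR was higher (0.72 ± 0.08, adjusted p = 6.0e-07, and 0.44 ± 0.09, adjusted p = 0.0036). PLAT, a plasminogen activator of the same list, was lower in CAL27 cells (-0.60 ± 0.05, adjusted p = 1.4e-09) and higher in HSC3 cells (0.44 ± 0.11, adjusted p = 0.013).

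**Figure D5:**
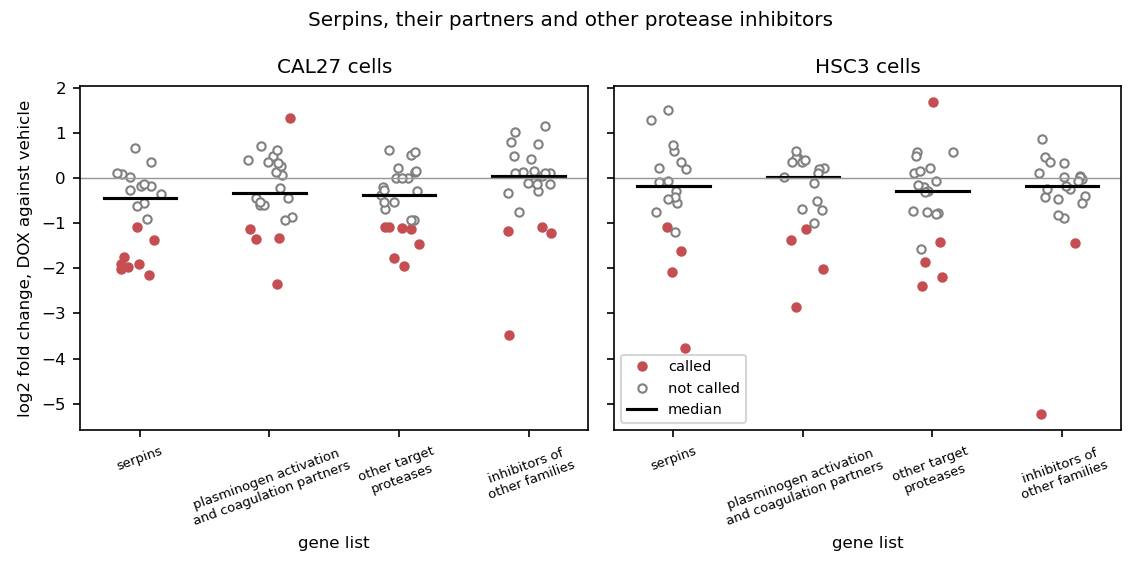
Log2 fold change, DOX against vehicle (y axis), of the serpins described, and of each tested plasminogen activation and coagulation partner, other target protease and inhibitor of another family (x axis) in CAL27 cells (left) and HSC3 cells (right), red where called and open where not, with the median of each list as a bar (for the serpins, over all tested). The serpin medians are -0.45 in CAL27 and -0.18 in HSC3 cells.

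Among 33 other target proteases, 25 were tested in CAL27 cells (7 called lower, beside 5.11% of all genes, none higher, median -0.39) and 21 in HSC3 cells (4 lower, beside 4.4%, 1 higher, beside 1.58%, median -0.29). The first proteases of the complement cascade, which SERPING1 inhibits, were lower together with it: C1R by -1.46 ± 0.10 in CAL27 and -2.38 ± 0.22 in HSC3 cells, and C1S by -1.08 ± 0.07 and -1.85 ± 0.14. TMPRSS4, a membrane serine protease, was lower in both lines (-1.11 ± 0.10 and -1.41 ± 0.16). The greatest falls among called genes of this list were those of TMPRSS11D in CAL27 cells (-1.96 ± 0.36) and C1R in HSC3 cells, and the one called rise was that of PRSS22 in HSC3 cells (1.69 ± 0.19). CTSV, a cathepsin of squamous epithelium, was lower in HSC3 cells (-2.20 ± 0.14) and higher by 0.22 ± 0.04 in CAL27 cells, while CTSL, the target of SERPINB13, was slightly higher in both (0.14 ± 0.05, adjusted p = 0.015, and 0.22 ± 0.07, adjusted p = 0.042).

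Of 37 protease inhibitors of other families, 23 were tested in CAL27 cells (4 called lower, beside 5.11% of all genes, none higher, median 0.05) and 21 in HSC3 cells (2 lower, beside 4.4%, none higher, median -0.18). The share in HSC3 cells rests on 2 genes of 21 and was not tested against that of all genes. WFDC5, a whey acidic protein domain gene of epithelia, was lower in both lines (-3.48 ± 0.40 and -5.24 ± 0.78) at low levels of 0.8002 and 2.27 CPM with vehicle. SLPI, WFDC2 and SPINK5, which are inhibitors made by epithelia, were called lower in CAL27 cells (-1.08 ± 0.14, -1.16 ± 0.10 and -1.23 ± 0.12). TIMP3, an inhibitor of metalloproteinases, was called lower in HSC3 cells (-1.44 ± 0.08).

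Of the 12 squamous markers, 7 were called lower in CAL27 cells (beside 5.11% of all genes; median log2 fold change -1.03) and 5 in HSC3 cells (beside 4.4%; median -0.71), KRT14 by -2.90 ± 0.06 and -1.88 ± 0.12. The epithelial adhesion molecule EPCAM, of the same list, was higher in both lines by less than 2-fold (0.40 ± 0.05, adjusted p = 6.7e-06, and 0.87 ± 0.09, adjusted p = 2.8e-05). E-cadherin, CDH1, had log2 fold changes of 0.03 and -0.02 (adjusted p = 0.52 and 0.87), and SFN 0.02 and -0.29 (adjusted p = 0.73 and 0.071). The 6 fibroblast markers summed to 14.6 to 15.6 CPM with vehicle and 11.2 to 11.6 CPM with DOX in CAL27 cells, 4.32, 4.52 and 3.84 against 5.37, 7.06 and 8.49 CPM in HSC3 cells, with COL1A1 the most abundant (9.26 and 4.18 CPM with vehicle) and COL3A1 at or under 3 counts in every group. Of the 4 tested in CAL27 cells, 2 were called lower (beside 5.11% of all genes; median -0.78). These were LUM (-1.97 ± 0.18) and PDGFRB (-1.02 ± 0.28). In HSC3 cells 1 was tested and not called. The 6 leukocyte and endothelial markers summed to 16.9 to 17.2 CPM with vehicle and 10.2 to 13.6 CPM with DOX in CAL27 cells, nearly all of it CDH5 (16.1 CPM with vehicle), and to less than 1 CPM in HSC3 cells, where CD3E was at or under 3 counts. The part of these markers in the serpin results was not tested.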

How the data were processed

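RNA was measured in 12 libraries of CAL27 and HSC3 cells made with a stranded poly(A) kit. The authors deposited raw counts per gene, 1 table per line. Per the labels' processing notes, reads went through FastQC 0.11.9, STAR 2.7.9a and featureCounts of Subread 2.0.1 on GRCh38. The study's methods give the genome with a release suffix, which may name the annotation. The treatment of strand, duplicates and reads that fit several genes are not given in the sources used here. The DOX columns of CAL27 carry the numbers 4 to 6 and were assigned to their group only.

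The members and gene lists were chosen with earlier results of these data known. Each line was fitted alone with edgeR 4.0.16 in R 4.3.3 (TMM scaling, filterByExpr with a minimum count of 10 and a total of 15, robust quasi-likelihood test, two-sided, Benjamini-Hochberg adjustment across every gene that passed the filter). Genes are called at an adjusted p under 0.05 and a fold change above 2. Line differences and interactions came from 1 fit of all 12 libraries. Standard errors are the log2 fold change over the square root of F. Folds are left out where a group's libraries all had 3 counts or fewer. All members were accounted for, and full values are given for called members, the 5 highest per kb of each line, SERPINB3, SERPINB4 and SERPING1, except for 1 member that enters the counts and sums but is not reported here; list genes were named where called in both lines or as the largest called change of a line and direction. KRT14, EPCAM, CDH1, SFN, LUM, PDGFRB, SERPINB10, PLAU, PLAUR, PLAT, CTSL, CTSV, SLPI, WFDC2, SPINK5, SERPINB5, SERPINB7, SERPINB8, SERPINF1 and SERPINF2 were given more fully after their values were seen. TIMP3 met neither rule for list genes and was named as the other gene of its list called in HSC3 cells. Lengths, positions and overlaps came from GENCODE 44 and promoters from RefSeq. Replicate pairs differed by a chi-square per degree of freedom of 7.71 to 141, so none was counted as 1 library. The code was tested on simulated data. DESeq2 1.42.0, other scalings and filters, counts divided by the estimated counts per molecule, 1 joint fit, other fold limits and leaving out each library were tried as alternatives.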

Additional observations from a re-analysis of the deposited data

Results flagged for a closer look

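For 7 serpins described here that had counts in every group, the response to DOX differed between the lines at an adjusted p under 0.05 (edgeR interaction term, Benjamini-Hochberg over all genes tested), given here as the log2 fold change in HSC3 cells minus that in CAL27 cells. SERPINB12 passed as well but was at 0 in all HSC3 vehicle libraries and is given above as counts. In all, 9 of the 25 serpins tested passed this level, beside 20.6% of all genes. With a 2-fold difference as well, 2 of 25 passed, beside 5.21% of all genes. The difference was above 0 for SERPINA1 (0.83), which fell in all DOX libraries of both lines but less in HSC3 cells, for SERPINB1 (0.91), which was lower than vehicle in 3 of 3 CAL27 DOX libraries and higher in 3 of 3 HSC3 DOX libraries, and for SERPINB2 (1.24), with 14 to 34 counts per CAL27 library. It was below 0 for SERPINB8 (-0.58) and SERPINB9 (-0.99), lower with DOX by more in HSC3 cells, for SERPINE2 (-0.41), higher with DOX in CAL27 cells, and for SERPINH1 (-0.49), lower with DOX in HSC3 cells. Counts per molecule were higher in every HSC3 DOX library than in the HSC3 vehicle libraries and overlapped between the CAL27 groups. With counts divided by this measure, 6 of the 7 differences kept an adjusted p under 0.05, with SERPINB2 still above 2-fold. That of SERPINB9 did not (-0.89, adjusted p = 0.13). The division largely cancels in the scaling to library size, so it cannot show whether duplication altered these differences.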

How the results depend on the processing

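Serpins called in CAL27 cells numbered 9 of 22 tested, 7 of 18 with a minimum count of 50, and 7 of 25 in 1 fit of all 12 libraries. They numbered 8 of 20 with counts per molecule divided out, 12 of 32 without a filter on low counts, and 15 of 22 without a limit on the fold. Leaving out 1 library gave 9 to 11. All genes called lower and higher were 984 and 252 of 19239 in the main fit. They were 705 and 149 of 15145 with a minimum count of 50, and 568 and 174 of 20694 in the joint fit. With counts per molecule divided out they were 829 and 193 of 16689, and without a filter 1067 and 284 of 28024. In HSC3 cells 4 of 20 tested were called, and 7 of 25 in 1 fit of all 12 libraries (adding SERPINA3, SERPINB3 and SERPINB12, each at or near 0 in a group). In that fit all genes called lower and higher also rose, from 793 and 284 of 18021 tested to 1237 and 545 of 20694. Above 1.5-fold 7 serpins were called, and by adjusted p alone 12. Leaving out 1 library, DOX library 1 included, always gave the same 4 genes. The interaction's 2 calls became 1 with a minimum count of 50 and 1 with counts per molecule divided out (SERPINB2 in both). They became 6 above 1.5-fold and 9 by adjusted p alone. Leaving out 1 library gave 1 to 4, the most without HSC3 DOX library 2, when SERPINB9 and SERPING1 (-3.04) were added. All genes called lower and higher in the interaction were 624 and 454 of 20694 in the main fit. They were 533 and 438 of 16215 with a minimum count of 50, and 499 and 432 of 16394 with counts per molecule divided out. Without HSC3 DOX library 2 they were 889 and 555 of 21398. The 17 calls between the lines (of 25 tested, beside 31.9% of all genes) ranged from 15 to 20 over all alternatives. Of 858 single-gene values under alternatives, for 55 results, 845 kept their direction and stayed called or not called (adjusted p and 2-fold together), 7 lost a call, 5 gained one, and 1 turned: SERPINH1 in CAL27 cells, 0.03, was -0.012 without CAL27 vehicle library 3 and up to 0.060 without another library, none past the threshold. By the adjusted p alone, 16 values lost and 17 gained a place under 0.05, in 12 results. Which cause lies behind each change was not tested. In HSC3 cells the deviations of same-numbered vehicle and DOX libraries from their group means had correlations of -0.20, 0.34 and -0.33. Differently numbered libraries gave -0.43 to 0.47. With 3 libraries per group these values cannot decide whether the numbers pair the libraries. With the replicate block 4 serpins were called, and genes called lower and higher went from 793 and 284 to 753 and 252. In CAL27 cells the DOX columns carry no shared number. SERPINA3 and SERPINA5 in CAL27 cells and SERPING1, SERPINB9 and SERPINB13 in HSC3 cells rest on few molecules, which limits their precision.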
